A study of Mus musculus with 4 samples.

Results

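The genes described here encode the cytochromes P450 of families 1 to 4 and the enzymes that hydrolyse or conjugate drugs, dietary compounds and steroids: carboxylesterases, UDP-glucuronosyltransferases, sulfotransferases and glutathione S-transferases. They were chosen by gene symbol, as those whose symbol starts with Cyp1, Cyp2, Cyp3, Cyp4, Ces, Ugt1a, Ugt2, Sult, Gsta, Gstm, Gstp, Gstt, Gsto, Gstk or Mgst and that have a probe set annotated to 1 gene only. This gave 112 genes, measured by 142 probe sets, of 18193 genes in all. Where a gene had several probe sets, the brightest on average was taken.

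RNA of mouse colon epithelium was measured on 4 arrays. The Cre-positive group (2 arrays) came from mice with both Stat3 alleles floxed (Stat3flfl) and a Cre recombinase under the villin promoter (VilCre+). The Cre-negative group (2 arrays) came from mice with the same floxed alleles but no recombinase (VilCre-). All mice had drunk 2.5% dextran sodium sulphate (DSS), a colitis-inducing agent, over 5 days, and no unexposed mouse was analysed here. Villin is active in intestinal epithelial cells, so the recombinase acts there and other cells of a Cre-positive mouse keep the gene. Stat3 encodes a transcription factor activated by cytokines such as interleukin 6 and interleukin 22. The labels call arrays 1 and 2 of each group biological replicates. They give neither age nor sex, nor the way the epithelium was separated, nor whether an array holds RNA of 1 mouse or of several.

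Drug metabolism in the gut runs in steps. P450s, fed with electrons by a reductase, oxidise a compound, and carboxylesterases cleave esters and amides. Conjugating enzymes then attach glucuronic acid, sulphate or glutathione from the activated donors UDP-glucuronic acid, PAPS or reduced glutathione, and efflux pumps export the product. Many of these genes respond to the nuclear receptor PXR (Nr1i2), to the aryl hydrocarbon receptor (Ahr) and to NRF2 (Nfe2l2), and several P450s also oxidise arachidonic acid and other endogenous lipids.

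The targeted gene was read first. By its brightest probe set Stat3 had log2 9.28 and 8.16 in the Cre-positive arrays, against 10.46 and 10.49 in the Cre-negative arrays (difference -1.75, SE 0.43, limma adjusted p = 0.332). Of its other probe sets 1 gave -1.57, 1 gave 1.29 and 1 was at the bottom of the scale, so that the mean of all 4 gave -0.53, and whether any of them lies in the deleted part is not known from the labels. All 12 pan-epithelial, all 12 absorptive colonocyte and all 10 goblet cell markers had a mean log2 of 4 or more. So had 7 of 9 T and NK cell, 7 of 12 macrophage and monocyte, 2 of 6 neutrophil and 1 of 8 fibroblast markers, and 0 of 6 endothelial, 0 of 7 smooth muscle and 0 of 5 B and plasma cell markers. Of 5 liver markers, Alb, Apoa1, Ahsg and Fgb were near the bottom of the scale, and Ttr had log2 9.20 and 10.91 in the Cre-positive arrays, against 11.12 and 10.41 in the Cre-negative arrays. Cre-positive array 1 stood apart: its correlations with the other arrays were 0.981 to 0.987, while those among the other 3 arrays were 0.992 to 0.994. Its neutrophil markers summed to an intensity of 1574, with 92 in Cre-positive array 2, against 139 and 86 in the Cre-negative arrays. That sum rested on S100a8 and S100a9, since Csf3r, Cxcr2, Lcn2 and Mmp9 were near the bottom, and the median of the neutrophil markers tested, relative to the Cre-negative mean, was 0.088 in Cre-positive array 1 and -0.15 in array 2. Its absorptive colonocyte markers had a median of 0.50 on the log2 scale relative to the Cre-negative mean, with 0.13 in Cre-positive array 2.

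No enzyme gene passed the test between Cre-positive and Cre-negative epithelium, and the median of the enzyme genes lay close to that of all genes. Values are GC-RMA intensities on the log2 scale and differences are Cre-positive minus Cre-negative. Of the 112 genes, 69 passed a filter on dim genes (mean log2 above 2.81, the 40th percentile of all probe sets), and the other 43 are described after the P450s. No gene passed limma's test after Benjamini-Hochberg adjustment over all 12659 genes tested: 0 of 69 enzyme genes were called in either direction, against a background of 0.0% higher and 0.0% lower. Without adjustment 0 of the 69 were under p of 0.05 on the higher side (background 2.54%) and 5 of 69, or 7.25%, on the lower side (background 8.51%), namely Cyp3a16, Sult6b1, Cyp2d10, Cyp2d9 and Cyp2r1. Both Cre-positive arrays lay above both Cre-negative arrays in 11 of 69 genes, or 15.9% (background 13.5%), and below both in 24 of 69, or 34.8% (background 34.7%). The median difference was -0.058 for the 69 genes and -0.053 for all genes tested. By their means 25 of the 69 genes stood higher and 44 lower, with backgrounds of 38.5% and 61.5%. These shares were close to the background. Leaving out Cre-positive array 2 raised the number under p of 0.05 on the lower side to 18, or 26.1%, against 17.3% of all genes tested with that array left out. Leaving out 1 array at a time turned the sign of the difference in 28 of the 57 enzyme genes with a mean log2 of 4 or more, moved it by over 1.5 times in 19 others, and left 10 within that range. The values below are descriptions of 4 arrays. In a tissue sample, fewer cells of a type and less RNA per cell cannot be told apart.

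Dim genes made up 10 of the 24 genes with both Cre-positive arrays lower. Under log2 4 GC-RMA values bunch closely, and this floor was slightly lower in both Cre-positive arrays: of all genes tested with a mean under 4, 72.7% had both Cre-positive arrays below both Cre-negative arrays, and 32.1% were under an unadjusted p of 0.05 on the lower side. Of the 12 enzyme genes there, 10 and 3 were. Of the 57 enzyme genes with a mean of 4 or more, 24 stood higher and 33 lower by their means, with 43.9% and 56.1% among all genes at that level. Among these 57, the groups did not overlap in 10 higher genes, or 17.5% (16.2% of all genes at that level), and in 14 lower genes, or 24.6% (25.2%). The text names no size of difference for a single gene whose level was under log2 4 in either group. The plot of difference against intensity shows every gene, and a range is given for the genes at or below the filter.

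**Figure D1:**
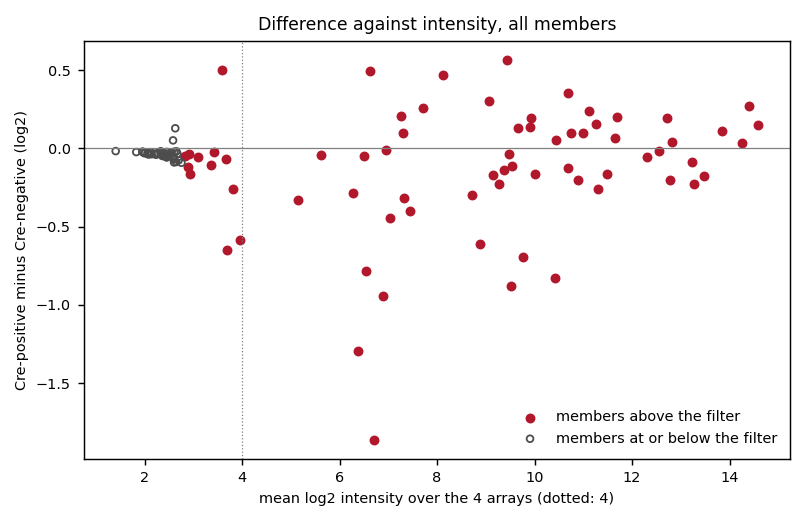
Difference between the groups (Cre-positive minus Cre-negative, log2, vertical axis) against mean log2 intensity over the 4 arrays (horizontal axis), 1 point for each of the 112 genes; filled points are the 69 above the filter and open circles the 43 at or below it, and the dotted line marks log2 4. The dim genes lie in a tight band just under 0, and the differences of -1.86 (Cyp2f2) and -1.30 (Cyp2d12) lie at mid intensity.

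**Figure D2:**
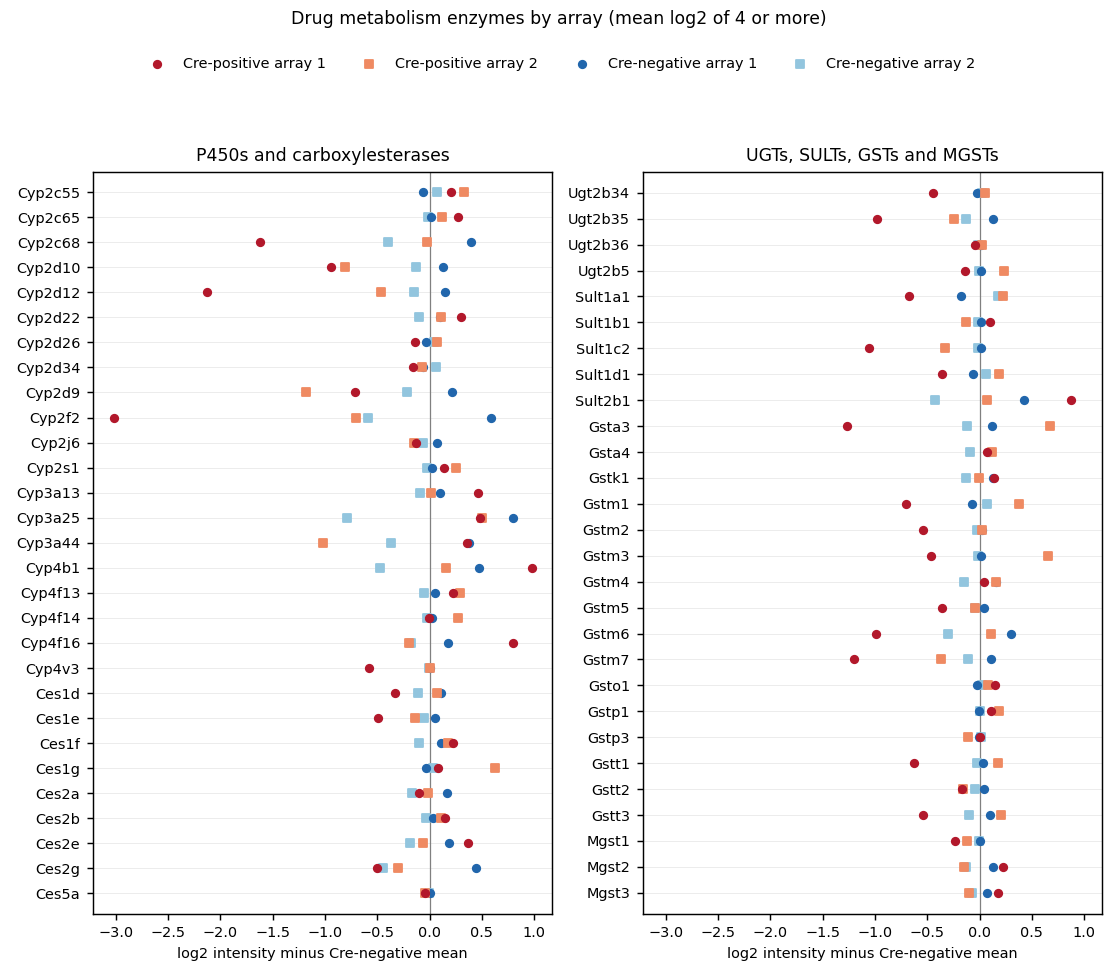
Log2 intensity of the 57 enzyme genes with a mean of 4 or more in each array, relative to that gene's Cre-negative mean (horizontal axis), 1 row for each gene by family; circles are arrays numbered 1 and squares arrays numbered 2, red and orange for Cre-positive, dark and light blue for Cre-negative. Cyp2d10 and Cyp2d9 are low in both Cre-positive arrays, whereas Cyp2f2, Cyp2c68 and Gsta3 are low mainly in Cre-positive array 1.

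The Cyp2 family, the largest group of drug-oxidising P450s, had 16 genes above the filter of 35, of which 5 had a higher and 11 a lower mean (median -0.092). In 5 of them (31.2%, against 13.5% of all genes tested) both Cre-positive arrays were higher and in 8 (50%, against 34.7%) both were lower, and 4 of the 16 had a mean under log2 4. The Cyp2d genes are the mouse relatives of the human drug-oxidising enzyme CYP2D6. Cyp2d10 had log2 9.01 and 9.14 in the Cre-positive arrays, against 10.08 and 9.82 in the Cre-negative arrays. Both Cre-positive arrays lay lower, by 1.84-fold in the means (difference -0.88, SE 0.14, limma adjusted p = 0.248). Leaving out any 1 array kept this difference between -1.01 and -0.75. Cyp2d9 had 6.65 and 6.18 in the Cre-positive arrays, against 7.58 and 7.15 in the Cre-negative arrays (difference -0.95, SE 0.28, limma adjusted p = 0.406). Here too the groups did not overlap, with differences of -1.18 to -0.71 when 1 array was left out. Cyp2d12 had 4.91 and 6.57 in the Cre-positive arrays, against 7.18 and 6.88 in the Cre-negative arrays (difference -1.30, SE 0.65, limma adjusted p = 0.533). Cre-positive array 1 was far lower than array 2: leaving out array 1 gave -0.47, and leaving out array 2 gave -2.13.

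These Cyp2d genes are neighbours. In the order of the RefSeq gene table, with pseudogenes that are not transcribed left out, the cluster on mouse chromosome 15 reads Cyp2d22, Cyp2d11, Cyp2d10, Cyp2d9, Cyp2d12, Cyp2d34 and Cyp2d13, then Cyp2d37-ps, Cyp2d40 and Cyp2d26. The 3 genes with differences of -0.88, -0.95 and -1.30 stand next to each other. On their sides Cyp2d22 differed by 0.20 (its other probe set by -0.33) and Cyp2d34 by -0.11. Cyp2d34 too had both Cre-positive arrays lower, by a very small margin, with 9.44 and 9.53 against 9.54 and 9.66. Cyp2d26 at the far end differed by -0.037, with 9.35 and 9.56 in the Cre-positive arrays against 9.46 and 9.54 in the Cre-negative arrays. Cyp2d13, a transcribed pseudogene, and Cyp2d40 were near the bottom of the scale, and Cyp2d11 has no probe set of its own. Genes of this cluster are close paralogues, and how far one gene's probes bind another's transcript was not tested.

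**Figure D3:**
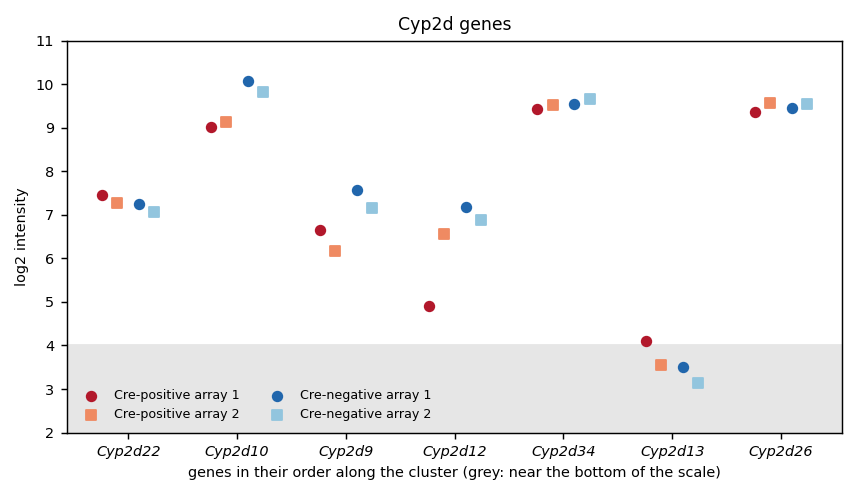
Log2 intensity (vertical axis) of the 7 Cyp2d genes above the filter, placed from left to right in their order along the cluster with equal spacing; each gene has its Cre-positive arrays (red circle, orange square) left of its Cre-negative arrays (dark blue circle, light blue square), and the grey band is below log2 4. In Cyp2d10, Cyp2d9, Cyp2d12 and, by a very small margin, Cyp2d34 both Cre-positive arrays lie under both Cre-negative arrays. Cyp2d26 at the far end has overlapping groups.

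In Cyp2d10 and Cyp2d9 both Cre-positive arrays lay well below the Cre-negative arrays. Their start regions are shown beside that of Cyp2d26, the tested gene of the cluster with overlapping groups. No promoter entry was available for Cyp2d12, Cyp2d22 or Cyp2d34, so these neighbours are missing here. Whether likeness of start regions goes with the differences was not tested. The sequences are from RefSeq, build GRCm38.p6, 250 bases before to 50 after the start site, at chr15:82407145-82407444 (minus strand), chr15:82452127-82452426 (plus strand) and chr15:82794196-82794495 (minus strand). Capitals mark, in Cyp2d10 and Cyp2d9, the longest run of bases that both share, and in Cyp2d26 its longest run shared with Cyp2d10.
Cyp2d10: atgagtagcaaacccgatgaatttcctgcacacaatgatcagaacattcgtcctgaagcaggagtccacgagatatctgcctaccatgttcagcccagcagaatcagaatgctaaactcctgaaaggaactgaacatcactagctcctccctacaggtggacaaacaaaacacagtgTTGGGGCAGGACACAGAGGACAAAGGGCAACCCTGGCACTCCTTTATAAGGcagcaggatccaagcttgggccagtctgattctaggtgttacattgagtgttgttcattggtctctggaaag
Cyp2d9: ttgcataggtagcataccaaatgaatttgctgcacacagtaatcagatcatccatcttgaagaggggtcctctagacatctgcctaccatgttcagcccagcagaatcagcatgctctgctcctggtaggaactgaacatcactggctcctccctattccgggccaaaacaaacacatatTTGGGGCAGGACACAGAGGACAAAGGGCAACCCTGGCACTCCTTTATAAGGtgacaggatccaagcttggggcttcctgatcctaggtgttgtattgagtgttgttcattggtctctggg
Cyp2d26: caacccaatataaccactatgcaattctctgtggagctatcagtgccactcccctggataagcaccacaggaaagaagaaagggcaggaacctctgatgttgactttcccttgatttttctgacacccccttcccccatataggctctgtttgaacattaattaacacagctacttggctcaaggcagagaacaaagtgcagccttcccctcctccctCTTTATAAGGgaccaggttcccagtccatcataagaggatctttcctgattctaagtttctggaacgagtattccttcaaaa

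The regions of Cyp2d10 and Cyp2d9 were identical in 252 of 304 aligned columns (82.9%) and shared an unbroken run of 51 bases. Cyp2d26 was identical to Cyp2d10 in 50.3% of aligned columns, and their longest shared run was 10 bases. The letters TATAA stand in both runs, so all 3 regions hold them. On both strands, 4 motifs were searched: TTCNNNGAA (STAT element), GCGTG (core of the xenobiotic response element), GTTAAT (part of the HNF1 element) and CAAAGTCCA (HNF4 element). None of them is in the windows of Cyp2d10 and Cyp2d9, and GTTAAT occurs once in that of Cyp2d26. Among all 32851 promoters of the table TTCNNNGAA was found in 8.3%, GCGTG in 32.4%, GTTAAT in 7.1% and CAAAGTCCA in 0.475%. The 60 enzyme genes above the filter that have an entry have 73 promoters, of which 8, 17, 7 and 4 hold these motifs in the same order. None of the 4 motifs contains another, and a match is a description of letters.

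The Cyp2c genes, which oxidise drugs and arachidonic acid, differed among themselves. Cyp2c55 had log2 14.46 and 14.59 in the Cre-positive arrays, against 14.19 and 14.32 in the Cre-negative arrays (difference 0.27, SE 0.11, limma adjusted p = 0.50). Its neighbour Cyp2c65 had 12.89 and 12.73 in the Cre-positive arrays, against 12.63 and 12.60 in the Cre-negative arrays (difference 0.19, SE 0.10, limma adjusted p = 0.537). In both genes the Cre-positive arrays lay higher by a small step, 1.20-fold and 1.14-fold, and Cyp2c65 differed by 0.12 without Cre-positive array 1. Its probe set is of a kind that can bind related transcripts. Cyp2c68 had 9.20 and 10.80 in the Cre-positive arrays, against 11.22 and 10.43 in the Cre-negative arrays, so its groups overlapped and Cre-positive array 1 was the low one. Of the 11 Cyp2c genes, 8 were at or below the filter.

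Cyp2c65 and Cyp2c68 are shown because both carry the HNF4 element upstream of the start, while their differences were of opposite sign. The sign of Cyp2c68 rested on 1 array. Its difference was -0.83 (SE 0.67, limma adjusted p = 0.625) with overlapping groups, and -0.029 without Cre-positive array 1. Anywhere in the window, 0.475% of all promoters hold the element. Cyp3a16, on the floor of the scale, also holds it upstream, and Sult1b1 holds it after the start. The element is in capitals, with 15 bases on both sides, at chr19:39060875-39060913 (plus strand) and chr19:39741155-39741193 (minus strand), RefSeq, GRCm38.p6.
Cyp2c65: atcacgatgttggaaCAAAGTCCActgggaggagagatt
Cyp2c68: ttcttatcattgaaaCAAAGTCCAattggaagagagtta
Hnf4a itself, the nuclear receptor known to bind this kind of element, had log2 12.80 and 12.71 in the Cre-positive arrays, against 12.46 and 12.71 in the Cre-negative arrays, with a difference of 0.17. Both Cre-positive arrays lay above both Cre-negative arrays by a very small margin.

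Cyp2f2, which oxidises naphthalene in mouse airway, had the widest spread of the family. It had log2 4.62 and 6.93 in the Cre-positive arrays, against 8.23 and 7.04 in the Cre-negative arrays (difference -1.86, SE 0.98, limma adjusted p = 0.543). Cre-positive array 1 was far below the rest, array 2 was close to Cre-negative array 2, and leaving out array 1 gave -0.70 where leaving out array 2 gave -3.02. Of the 5 other Cyp2 genes above the filter, Cyp2s1, an epithelial P450, had 9.96 and 10.07 in the Cre-positive arrays, against 9.84 and 9.79 in the Cre-negative arrays. Cyp2j6, a fatty acid oxidising P450, differed by -0.14. The vitamin D 25-hydroxylase Cyp2r1 had 3.86 and 3.47 in the Cre-positive arrays, against 4.38 and 4.12 in the Cre-negative arrays, which puts its Cre-positive arrays near the bottom of the scale (limma adjusted p = 0.419). Cyp2j9 and Cyp2j11 were near the bottom in all 4 arrays. A log2 difference of 1 or more on the lower side was seen in 2 of 69 enzyme genes (Cyp2f2 and Cyp2d12), or 2.9%, with a background of 0.529%, and on the higher side in 0 of 69, with a background of 0.853%. Without Cre-positive array 1 neither gene reached that size.

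In the Cyp3 family 4 of 5 genes passed the filter. Cyp3a13, the Cyp3a enzyme known from mouse intestine, had log2 11.45 and 11.01 in the Cre-positive arrays, against 11.09 and 10.90 in the Cre-negative arrays (difference 0.24, SE 0.20). The groups overlapped, and the difference was 0.017 without Cre-positive array 1. Cyp3a25 had 6.86 and 6.88 in the Cre-positive arrays, against 7.17 and 5.58 in the Cre-negative arrays, so that the Cre-negative arrays lay on either side and the difference of 0.50 was -0.30 without Cre-negative array 2. Cyp3a44 had 5.68 and 4.30 in the Cre-positive arrays, against 5.69 and 4.95 in the Cre-negative arrays. Cyp3a16 stood on the floor of the scale, with 2.84 and 2.84 in the Cre-positive arrays against 2.97 and 2.96 in the Cre-negative arrays (limma adjusted p = 0.244), and no size is given. The Cyp4 enzymes, which hydroxylate fatty acids and eicosanoids at the chain end, had 6 of 13 genes above the filter, 4 with a higher and 2 with a lower mean (median 0.20). Cyp4b1 had 10.12 and 9.30 in the Cre-positive arrays, against 9.62 and 8.67 in the Cre-negative arrays, a difference of 0.57 (SE 0.48) with overlapping groups that was 0.091 without Cre-negative array 2. Cyp4f13 had 7.80 and 7.87 in the Cre-positive arrays, against 7.62 and 7.52 in the Cre-negative arrays, and was the Cyp4 gene with both Cre-positive arrays higher. Cyp4f14 differed by 0.13 with overlapping groups, and Cyp4f16 and Cyp4v3 by 0.30 and -0.29 with overlapping groups. Cyp4f18 was near the bottom of the scale.

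The 43 genes at or below the filter include enzymes known from liver. All 3 Cyp1 genes, the classic targets of the aryl hydrocarbon receptor, were among them: Cyp1a1 had log2 2.06 and 2.05 in the Cre-positive arrays, against 2.11 and 2.08 in the Cre-negative arrays. Cyp1a2 lay between 2.12 and 2.16 and Cyp1b1 between 2.70 and 2.81. Cyp2e1, Cyp2b10, Cyp2c29, Cyp3a11, Cyp4a14 and the oestrogen sulfotransferase Sult1e1 were there too. In 40 of the 43 genes, or 93.0%, both Cre-positive arrays lay below both Cre-negative arrays, as in 92.7% of all genes at or below the filter, and their differences ranged from -0.09 to 0.13. Cyp2u1 was the gene with both Cre-positive arrays above. A gene in this band may be silent or below what its probe set detects, which these values do not separate.

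Carboxylesterases had 12 of 13 genes above the filter, 4 with a higher and 8 with a lower mean (median -0.082). Ces2a had log2 12.25 and 12.33 in the Cre-positive arrays, against 12.51 and 12.18 in the Cre-negative arrays (difference -0.058, SE 0.15), and its groups overlapped. Ces1f had 11.81 and 11.76 in the Cre-positive arrays, against 11.69 and 11.48 in the Cre-negative arrays (difference 0.20, SE 0.11, limma adjusted p = 0.553), with a probe set that can bind related transcripts and a range of 0.095 to 0.31 when 1 array was left out. Ces1g, a triglyceride hydrolase, had 10.59 and 11.14 in the Cre-positive arrays, against 10.48 and 10.55 in the Cre-negative arrays. Both Cre-positive arrays were higher in 3 genes (25.0%, against 13.5% of all genes tested), Ces1f, Ces1g and Ces2b (difference 0.13). Both were lower in 5 (41.7%, against 34.7%), namely Ces1e (-0.32), Ces5a, Ces1c, Ces1h and Ces2f. Ces1d, Ces2e and Ces2g had overlapping groups, Ces5a differed by -0.042, and Ces1c, Ces1h and Ces2f were near the bottom of the scale in at least the Cre-positive arrays.

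UDP-glucuronosyltransferases attach glucuronic acid. No Ugt1a gene had a probe set of its own, and 4 of 8 Ugt2 genes passed the filter, 1 with a higher and 3 with a lower mean. Ugt2b34 had log2 12.43 and 12.92 in the Cre-positive arrays, against 12.85 and 12.90 in the Cre-negative arrays (difference -0.20, SE 0.20), with Cre-positive array 1 as the low value. That probe set can bind related transcripts, and the other Ugt2b34 probe set gave -0.52, also with overlapping groups. Ugt2b5 differed by 0.050 with overlapping groups and Ugt2b36 by -0.013. Ugt2b35 had 8.19 and 8.94 in the Cre-positive arrays, against 9.30 and 9.05 in the Cre-negative arrays, and both Cre-positive arrays lay lower (difference -0.61, SE 0.31, limma adjusted p = 0.537), by -0.24 without Cre-positive array 1 and -0.98 without array 2.

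Sulfotransferases attach sulphate from PAPS, and 7 of 13 passed the filter, 1 with a higher and 6 with a lower mean (median -0.085). Sult1a1, which acts on phenols, had log2 12.71 and 13.60 in the Cre-positive arrays, against 13.20 and 13.56 in the Cre-negative arrays. Sult1d1, which acts on catecholamines, had 12.92 and 13.46 in the Cre-positive arrays, against 13.21 and 13.34 in the Cre-negative arrays. In both genes Cre-positive array 1 was the lowest of the 4 and array 2 the highest, so the differences of -0.23 and -0.085 turned positive without array 1 (0.22 and 0.18). Sult1c2 had 9.04 and 9.77 in the Cre-positive arrays, against 10.12 and 10.09 in the Cre-negative arrays, with both Cre-positive arrays lower (difference -0.69, SE 0.29, limma adjusted p = 0.499), by -0.33 without Cre-positive array 1 and -1.06 without array 2. The cholesterol sulfotransferase Sult2b1 was the 1 gene with a higher mean (0.47, or 0.045 without Cre-negative array 2), with overlapping groups. Sult1b1 differed by -0.017, and Sult5a1 stayed under log2 4. So did Sult6b1, with 3.70 and 3.67 in the Cre-positive arrays against 3.95 and 3.94 in the Cre-negative arrays (limma adjusted p = 0.244).

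Glutathione S-transferases attach glutathione to electrophiles, and 17 of 19 passed the filter, 6 with a higher and 11 with a lower mean (median -0.16). Gstp1, the pi class enzyme of epithelia, had log2 14.62 and 14.70 in the Cre-positive arrays, against 14.51 and 14.52 in the Cre-negative arrays (difference 0.15, SE 0.094, limma adjusted p = 0.571). Gsto1, of the omega class, had 13.93 and 13.87 in the Cre-positive arrays, against 13.77 and 13.81 in the Cre-negative arrays (difference 0.11, SE 0.089), while its other probe set gave 0.00090. Gsta4, which clears the lipid peroxidation product 4-hydroxynonenal, differed by 0.095 with overlapping groups.

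The mu class genes stand together on mouse chromosome 3, and several of them lay far apart in the Cre-positive arrays. Gstm1 had log2 10.86 and 11.94 in the Cre-positive arrays, against 11.49 and 11.63 in the Cre-negative arrays. Gstm3 had 10.24 and 11.36 in the Cre-positive arrays, against 10.71 and 10.69 in the Cre-negative arrays. In both genes Cre-positive array 1 was below and array 2 above both Cre-negative arrays, and the differences were -0.16 and 0.098. Both probe sets are of kinds that can bind related transcripts. The other Gstm3 probe set gave -0.051 and the other Gstm1 probe sets above the filter gave -0.18 each, all with the same order of arrays. The median of the 7 mu class genes relative to the Cre-negative mean was -0.54 in Cre-positive array 1 and 0.11 in array 2. For all genes tested these medians were -0.072 and -0.037. Gsta3, of the alpha class, showed the order of Gstm1 and Gstm3 with 7.60 and 9.53 in the Cre-positive arrays, against 8.99 and 8.75 in the Cre-negative arrays. Both Cre-positive arrays were lower in 2 of the 7 mu class genes, Gstm7 and Gstm5, or 28.6%, against 34.7% of all genes tested. Gstm7 had 5.74 and 6.57 in the Cre-positive arrays, against 7.05 and 6.82 in the Cre-negative arrays (difference -0.78, SE 0.35, limma adjusted p = 0.517). Gstm5 differed by -0.20. Without Cre-positive array 1 these differences were -0.36 for Gstm7 and -0.045 for Gstm5, and without array 2 they were -1.20 and -0.36. In the theta class Gstt1 and Gstt3 were low in Cre-positive array 1, and Gstt2 differed by -0.16 with both Cre-positive arrays lower. Gstk1, Gstp3, Gstm2, Gstm4 and Gstm6 had overlapping groups, and the probe set of Gsta2 alone was near the bottom of the scale. A probe set that Gsta2 shares with Gsta1 and Gm3776 had 11.92 and 11.54 in the Cre-positive arrays, against 11.63 and 10.94 in the Cre-negative arrays, with overlapping groups.

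The microsomal enzymes of glutathione conjugation and leukotriene synthesis all passed the filter. Mgst1 had log2 13.34 and 13.45 in the Cre-positive arrays, against 13.58 and 13.57 in the Cre-negative arrays (difference -0.18, SE 0.094, limma adjusted p = 0.543), with both Cre-positive arrays lower by a small step that was -0.12 without Cre-positive array 1. Mgst2 and Mgst3 differed by 0.038 and 0.036 and their groups overlapped.

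The Cre-positive arrays were at least 0.5 apart on the log2 scale in 22 of 69 genes, or 31.9%, against 21.8% of all genes tested. Of these 22, 17 were lower in Cre-positive array 1 (24.6% of the 69, against 12.0% of all genes tested) and 5 were higher (7.25%, against 9.83%). The Cre-negative arrays were that far apart in 9 of 69, or 13.0%, against 7.51% of all genes tested. The median of the 69 genes relative to the Cre-negative mean was -0.12 in Cre-positive array 1 and -0.018 in array 2. For all genes tested these medians were -0.072 and -0.037. The part of the neutrophil and colonocyte marker levels of array 1, given above, in these values was not tested.

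**Figure D4:**
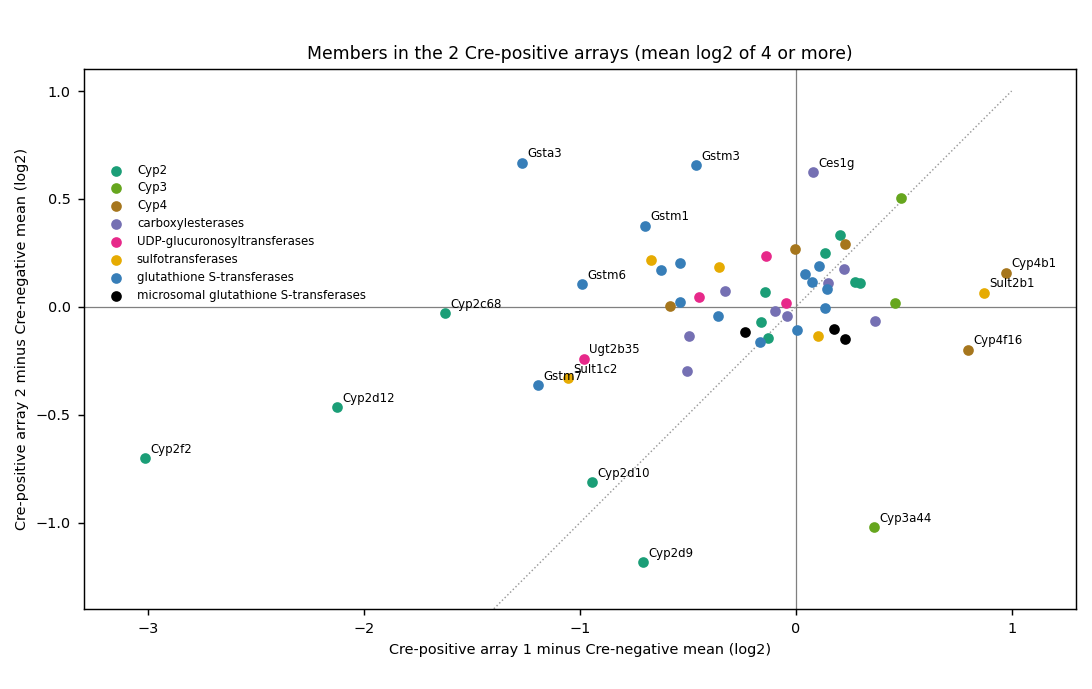
Each of the 57 enzyme genes with a mean log2 of 4 or more, placed by its log2 value in Cre-positive array 1 (horizontal axis) and in Cre-positive array 2 (vertical axis), each minus the Cre-negative mean; colours are enzyme families and the dotted line marks equal values. Cyp2d10 lies near the line, Cyp2f2 and Cyp2d12 lie low mostly on the axis of array 1, and Gsta3, Gstm1, Gstm3 and Gstm6 lie below 0 on array 1 and above 0 on array 2.

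The list of electron donors and cofactor supply had 20 of 22 genes tested. In 5 of them (25.0%, against 13.5% of all genes tested) both Cre-positive arrays were higher and in 3 (15%, against 34.7%) both were lower. By their means the list had 10 with a higher and 10 with a lower mean (median 0.0045). In limma 0 of the 20 passed after adjustment, and 1 higher (5.0%, against 2.54% of all genes tested) and 0 lower (against 8.51%) were under an unadjusted p of 0.05. That gene was Slc35d1, which carries UDP-glucuronic acid into the endoplasmic reticulum. It had log2 10.88 and 11.10 in the Cre-positive arrays, against 10.23 and 10.23 in the Cre-negative arrays, 1.69-fold higher in the means (difference 0.76, SE 0.12, limma adjusted p = 0.244). Its difference stayed between 0.65 and 0.87 when any 1 array was left out, and was 1.34 by the mean of all its probe sets. The sulphate transporter Slc26a2 had 13.11 and 13.50 in the Cre-positive arrays, against 12.89 and 12.83 in the Cre-negative arrays (difference 0.45, SE 0.17, limma adjusted p = 0.476), and differed by 0.25 without Cre-positive array 2 and by 0.24 as the mean of its probe sets. Ugdh, the enzyme that makes UDP-glucuronic acid and a gene chosen after its values were seen, had 13.45 and 13.68 in the Cre-positive arrays, against 13.33 and 13.32 in the Cre-negative arrays. Alas1, the first enzyme of haem synthesis, had overlapping groups, as had the glutathione synthesis genes Gclc and Gclm and the PAPS synthases Papss1 and Papss2. Por, the P450 reductase, was not among the genes tested.

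Of the drug transporters 19 of 21 were tested, 11 with a higher and 8 with a lower mean (median 0.074). Both Cre-positive arrays were higher in 5 (26.3%, against 13.5% of all genes tested) and lower in 4 (21.1%, against 34.7%). The lower ones were Slc15a1 and, near the bottom of the scale, Abcb1b, Abcc6 and Slco3a1. In limma 0 passed after adjustment, and 2 higher (10.5%, against 2.54% of all genes tested) and 0 lower (against 8.51%) were under an unadjusted p of 0.05. With so few genes these shares are a description of the list. Abcb1a, the efflux pump P-glycoprotein, had log2 13.44 and 13.39 in the Cre-positive arrays, against 12.86 and 12.91 in the Cre-negative arrays (difference 0.53, SE 0.085, limma adjusted p = 0.244). Abcc1, an exporter of glutathione conjugates, had 9.16 and 8.90 in the Cre-positive arrays, against 8.35 and 8.50 in the Cre-negative arrays (difference 0.60, SE 0.16, limma adjusted p = 0.351), or 0.39 as the mean of its probe sets. In both the Cre-positive arrays lay well above the Cre-negative arrays. Abcc3, an exporter of glucuronides chosen after its values were seen, had 11.59 and 11.34 in the Cre-positive arrays, against 11.18 and 11.02 in the Cre-negative arrays. Abcg2 and Abcc4 had overlapping groups, and the peptide transporter Slc15a1 was lower in both Cre-positive arrays (difference -0.45).

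**Figure D5:**
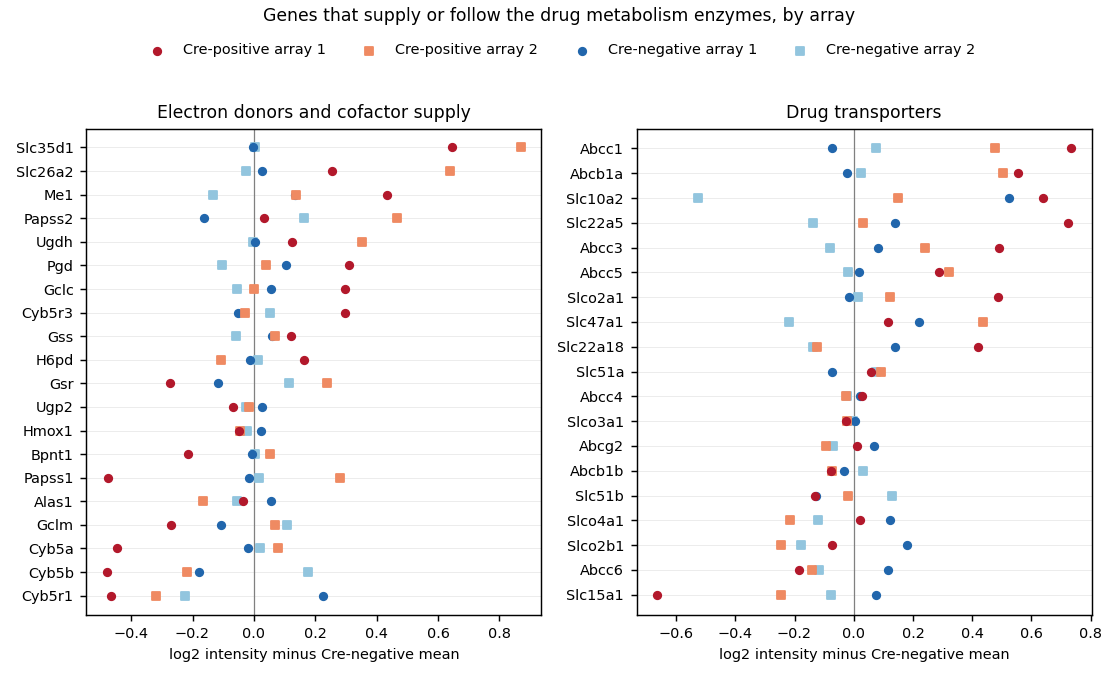
Log2 intensity in each array minus the Cre-negative mean of the gene (horizontal axis) for the 20 tested genes of electron donors and cofactor supply (left) and the 19 tested drug transporters (right), ordered from the most positive difference at the top; symbols and colours are those of the plot of enzymes by array. Slc35d1, Slc26a2, Abcc1 and Abcb1a have both Cre-positive arrays to the right of both Cre-negative arrays.

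Other drug metabolism enzymes, from aldehyde dehydrogenases to methyltransferases, had 33 of 40 genes tested, 14 with a higher and 19 with a lower mean (median -0.078). In limma 0 were under an unadjusted p of 0.05 in either direction, against 2.54% higher and 8.51% lower of all genes tested. Both Cre-positive arrays were higher in 3 (9.09%, against 13.5% of all genes tested) and lower in 10 (30.3%, against 34.7%). The retinal dehydrogenase Aldh1a1 had log2 13.05 and 12.81 in the Cre-positive arrays, against 12.66 and 12.40 in the Cre-negative arrays (difference 0.39, SE 0.15, limma adjusted p = 0.486). The quinone reductase Nqo2 had 7.87 and 8.16 in the Cre-positive arrays, against 8.52 and 8.37 in the Cre-negative arrays (difference -0.43, SE 0.17, limma adjusted p = 0.493), or -0.24 as the mean of its probe sets and -0.28 without Cre-positive array 1. Nqo1, a well known NRF2 target, had overlapping groups, with 8.32 and 9.26 in the Cre-positive arrays against 8.70 and 8.75 in the Cre-negative arrays. That is the order seen in Gstm1 and Gsta3, and also in the carbonyl reductases Cbr1 and Cbr3. Genes of other kinds had it too, among them Sult1a1, Sult1d1, Gstt1, Gstt3, Papss1, Cyb5a, Foxa2 and Pparg. The glutathione synthesis genes Gclc and Gclm did not have this order. These genes were picked with their values in view, the share of all genes with this order was not counted, and a shared cause was not tested.

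The receptors and regulators of these genes had 21 of 25 tested, 12 with a higher and 9 with a lower mean (median 0.077). Limma put 0 of the 21 under an unadjusted p of 0.05, against 2.54% higher and 8.51% lower of all genes tested. The groups did not overlap in 4 higher genes of the 21 (against 13.5% of all genes tested) and in 3 lower genes (against 34.7%). The bile acid receptor Nr1h4 had log2 10.19 and 10.31 in the Cre-positive arrays, against 10.42 and 10.40 in the Cre-negative arrays (difference -0.16, SE 0.096, limma adjusted p = 0.563), or -0.098 without Cre-positive array 1. The oxysterol receptor gene Nr1h3 was near the bottom of the scale. PXR (Nr1i2) had 8.28 and 8.24 in the Cre-positive arrays, against 7.89 and 8.15 in the Cre-negative arrays. Ahr had 7.58 and 7.87 in the Cre-positive arrays, against 7.77 and 8.01 in the Cre-negative arrays, with overlapping groups. Nfe2l2 had 12.31 and 12.57 in the Cre-positive arrays, against 12.26 and 12.26 in the Cre-negative arrays. PXR and Nfe2l2 lay slightly higher in both Cre-positive arrays.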

How the data were processed

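RNA of colon epithelium was hybridised to 4 arrays, 2 a group. The deposited values are intensities made with GC-RMA (background by probe GC content, arrays made alike, probes summarised), GC-RMA being named by the submitters' processing notes and intensity per the file headers. The authors' second deposited table holds the same intensities rounded to whole numbers (differing by at most 0.5), log2 values relative to the Cre-negative mean (equal to within 0.000501), an absolute fold, a ratio, and a p-value of an unnamed test. These ratios and p-values of the authors' table were not used here. Software versions are not given.

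Probe sets were named through the platform annotation: 34945 had 1 gene, 932 several, 9160 are unnamed here and 64 are controls. All 112 genes matched the RefSeq gene table by identifier. Of the 69 genes tested, 9 are read by probe sets that can bind related transcripts, and 4 of the 13 with several probe sets above the filter (Cyp2d13, Cyp2d22, Gsta3 and Gstm3) have 1 of opposite sign.

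Values were log2 transformed without a pseudocount. Groups were compared with limma 3.58.1 in R 4.3.3 (lmFit, eBayes with intensity trend, two-sided, no block, Benjamini-Hochberg adjustment over 12659 genes, threshold 0.05). There were 2 residual degrees of freedom, and SE is the moderated standard error. The smallest two-sided p of an exact permutation test here is 0.333, and the number of arrays limits the precision. The p-values measure the spread between arrays that the labels call biological replicates. The fit was run on simulated data, where the only requirement was that planted differences come back near their size on average. The share of planted differences that passes the adjusted threshold with 2 arrays a group is not given here. Named by rule were Stat3, the 2 tested genes of highest mean in each family, those under an unadjusted p of 0.05, those differing by 1 or more, and the 2 of smallest p in each of 4 pathway lists. Any other gene was picked with its values in view. The genes, lists and tests were chosen with earlier results of these data known. Alternatives were the filter, centring, a pseudocount, the probe set, the trend, a replicate block, the rounded table and leaving out each array.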

Additional observations from a re-analysis of the deposited data

Results flagged for a closer look

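The rule for the enzyme genes leaves out probe sets annotated to several genes. Of those that name a gene of these families, 5 stood higher in the Cre-positive arrays by their means. The rest were near the bottom of the scale, with both Cre-positive arrays lower. They are annotated to Cyp3a41a and Cyp3a41b, Ugt2a1 and Ugt2a2, Cyp2a4 and Cyp2a5, Cyp4a10 and Cyp4a31, and Ces3a and Ces3b. In 2 of the 5 that stood higher the groups overlapped. The probe set of Gsta1, Gsta2 and Gm3776 differed by 0.45 and that of Cyp4f16 and Cyp4f37 by 0.35. In the other 3 both Cre-positive arrays lay above both Cre-negative arrays, as in 16.2% of all genes tested with a mean log2 of 4 or more. These 3 are annotated to the same 8 genes of the Ugt1a cluster, which share their last exons and encode glucuronosyltransferases of bilirubin and phenols. The first had log2 13.07 and 13.06 in the Cre-positive arrays, against 12.81 and 12.83 in the Cre-negative arrays, a difference of 0.24. The second had 14.08 and 14.08 in the Cre-positive arrays, against 13.80 and 13.91 in the Cre-negative arrays, a difference of 0.22. The third had 13.41 and 13.61 in the Cre-positive arrays, against 13.21 and 13.30 in the Cre-negative arrays, a difference of 0.26. These differences were not tested, and the 3 probe sets carry the same annotation, so they are not independent.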

How the results depend on the processing

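The number of arrays and, for dim genes, signal close to background limit every value. Of 409 values of the 32 named genes under 13 alternatives, 398 kept their direction and their side of the threshold. This count is no measure of stability. The filters, the trend and the replicate block leave a gene's difference unchanged, so its direction could not turn there. The smallest adjusted p of the main fit was 0.244, so no gene stood close to the threshold. All 9 reversals came with 1 array left out. Leaving out 1 array reversed Cyp3a25 (-0.30 without Cre-negative array 2, range to 1.29), Cyp4f14 (-0.0015 without Cre-positive array 2, range to 0.27), Ugt2b34 (0.048 without Cre-positive array 1, range from -0.45), Ugt2b5 (-0.14 without Cre-positive array 2), Ces2a (0.11 without Cre-negative array 1, range from -0.22), Mgst3 (-0.10 without Cre-positive array 1 and -0.035 without Cre-negative array 2), Sult1a1 (0.22, range from -0.67) and Sult1d1 (0.18), both without Cre-positive array 1. With the authors' rounded intensities limma called 6 genes higher and 546 lower, 4 of the lower ones enzyme genes, Cyp3a16 and Sult6b1 among them. Of the 552, 541 had a mean under log2 4 and 542 had equal rounded values within both groups, so the rounding made their spread 0. At the unadjusted threshold of 0.05, 322 of all genes stood higher and 1077 lower. The higher count was 114 to 1182 with 1 array left out. The lower count was 844 to 2188 with 1 array left out, 5319 without the filter, 259 with a filter at the 60th percentile, 583 without the trend and 392 with arrays centred on their medians, where 366 were higher. Centring raised the higher share of these calls to 48.3%, from 23.0%. For the enzyme genes the higher count of 0 became 1 without the filter, 1 without the trend and 0 to 3 with 1 array left out. The lower count of 5 became 40 without the filter, 2 with the 60th percentile, 3 without the trend and 6 to 18 with 1 array left out. The filters change the number of genes tested, and the cause of the other changes was not tested. With the replicate number as a block 2 enzyme genes were higher at that threshold, and the block moved no adjusted call. Both groups use the numbers 1 and 2 without a stated pairing, and the deviations of same-numbered arrays correlated at 0.423. Of 117 family medians under the alternatives 106 stayed within their spread. The Cyp4 median of 0.20 was -0.022 without the filter, 0.26 at the 60th percentile and 0.082 to 0.24 with 1 array left out. The others that moved did so with 1 array left out, ranging from -0.21 to 0.41 for Cyp3, -0.29 to 0.034 for glucuronosyltransferases, -0.20 to 0.0155 for carboxylesterases, -0.36 to 0.11 for glutathione S-transferases (-0.050 by the mean of all probe sets) and -0.24 to -0.030 for sulfotransferases. The Cyp2 median ranged from -0.14 to -0.038.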
